A study of Mus musculus with 7 samples.

Results

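A set of 9 contractile genes of fast muscle fibres was followed through regrowth of the mouse plantaris: the troponin subunits Tnnt3, Tnni2 and Tnnc2, the tropomyosin Tpm1, the myosin light chains Mylpf and Myl1, the myosin-binding protein Mybpc2 and the Z-disc proteins Actn3 and Myoz1. They were chosen by name, and each had 1 array row that bore only its own symbol. All 9 were among the 12102 genes kept, of 19938 genes with such a row; genes whose row stayed under the median of the 35556 rows on each of the arrays were left out. Although the set is named for troponins and the thick filament, only Mylpf, Myl1 and Mybpc2 belong to the thick filament.

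The muscle was the left plantaris of male C57BL/6J mice aged 5 months, all of which had spent 2 weeks in hind limb suspension, which unloads the leg muscles. The control, d0, was taken at the end of suspension, and the other groups after 1, 3, 5, 7, 10 or 14 days of renewed loading (d1 to d14). Each of the 7 time points was 1 Affymetrix Mouse Gene 1.0 ST array of RNA pooled from 6 animals. A muscle that had never been suspended was not analysed here, so d0 is an unloaded and not a normal muscle. With 1 array per group a difference between time points has no error of its own, and precision is limited by how few arrays there are. The closest that any 2 arrays came to each other, as the robust SD of log2 differences over the kept genes, was 0.0896 (d5 and d14), and this value serves below as a scale for small differences. Between d0 and a later array the same SD was 0.126 (d14) to 0.179 (d1). A ratio to d0 past 0.0896 can therefore still lie within the scatter of the 2 arrays compared.

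In a sarcomere, calcium binds troponin C, troponin I then releases its hold on actin, troponin T anchors the complex to tropomyosin, and myosin heads reach the thin filament. Light chains stiffen the neck of each myosin head, myosin-binding protein C tunes how heads are recruited, and alpha-actinin ties thin filaments to the Z-disc. Most of these proteins are made from one gene in fast fibres and from another in slow fibres, and the pair is a common readout of fibre type. The plantaris of mice consists mostly of fast fibres.

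Skeletal muscle genes were read, but this is a weak check and cannot tell the plantaris from another muscle. Lists of other cells were also kept in full, such as all 10 endothelial and all 11 fibroblast genes. All 10 genes of a muscle identity list, among them the skeletal actin Acta1, the muscle creatine kinase Ckm and the ryanodine receptor Ryr1, were kept (4 of the 10 also stand in the list of other fast fibre genes below), and their summed intensity lay between 123032 (d3) and 129090 (d10). The median intensity of an array was 128.1 to 131.8. Over all rows, d0 had a mean Spearman correlation with the other arrays of 0.972, against 0.984 to 0.989 for each of the rest, so the 9 genes and their counterparts are also given against d14; other gene lists are given against d0 only. In whole muscle, fewer fast fibres and less RNA per fibre cannot be told apart.

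The 9 genes stayed close to their suspended level throughout. The widest range over the 7 arrays was 0.33 on the log2 scale (1.26-fold, Mybpc2) and the narrowest 0.07 (1.05-fold, Tnnt3). Their median range was 0.23, against 0.31 over all kept genes, and 1 of the 9 ranges (Mybpc2) exceeded that all-gene median. The 69 other genes at least as bright as the dimmest member, among them muscle fibre genes such as Ckm and Pygm, had a median range of 0.21. The members' range is near that of these genes. Within this narrow band 5 of the genes, Tnni2, Tnnc2, Mybpc2, Actn3 and Myoz1, had their highest value at d0 and their lowest at d3, and all 5 stood higher at d14 than at d3. The other 4 genes, Tnnt3, Tpm1, Mylpf and Myl1, were lowest at d1 and back at or above their d0 level by d5 or d10. This division was made after the values were seen and was not tested.

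**Figure D1:**
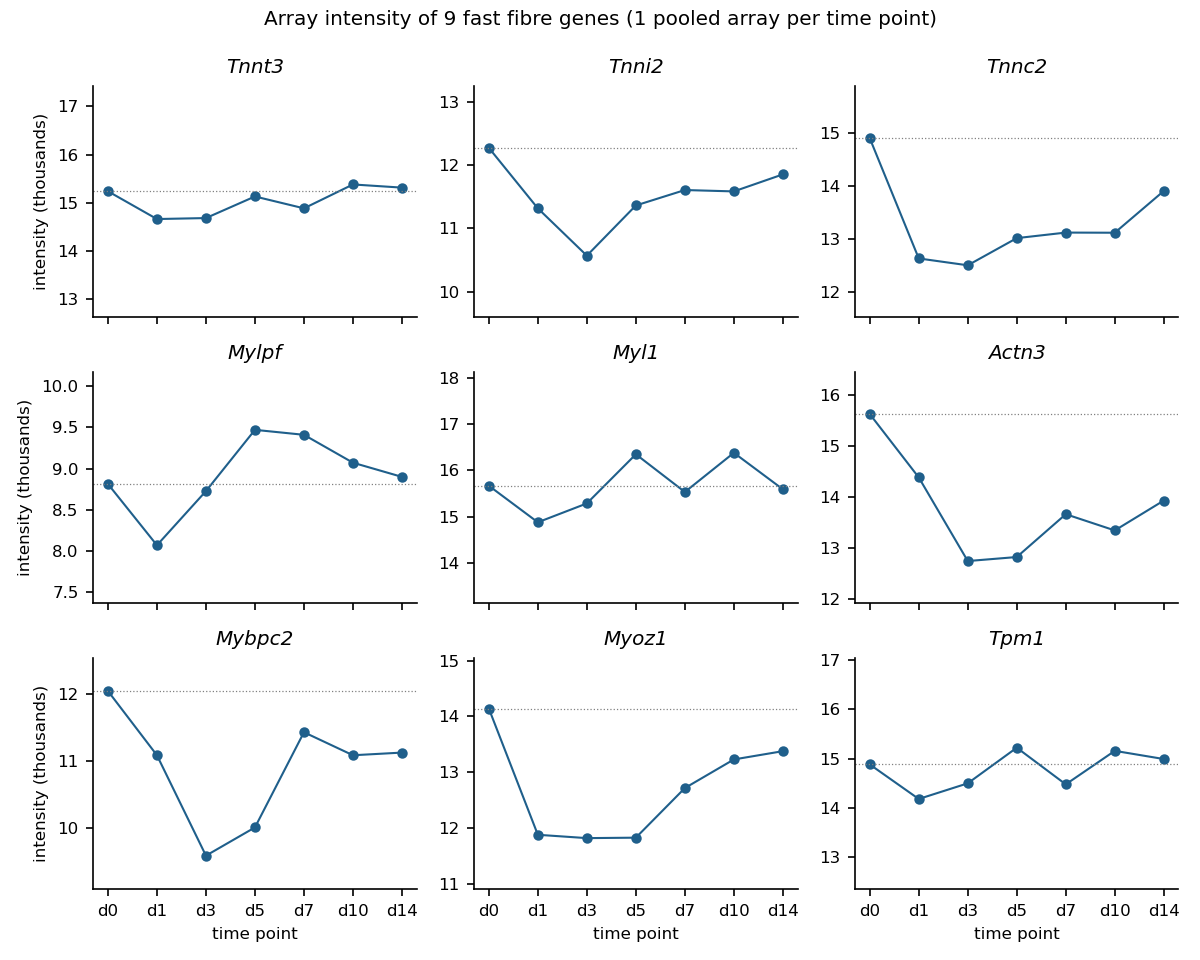
Linear array intensity, divided by 1000, of each of the 9 genes (y axis, with its own scale that spans 16% to each side of the middle of the gene's range and does not start at 0) at each time point (x axis). Points are single pooled arrays, lines join them, and the dotted line marks d0. Tnni2, Tnnc2, Actn3, Mybpc2 and Myoz1 are highest at d0 and lowest at d3, while Tnnt3, Mylpf, Myl1 and Tpm1 are lowest at d1.

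The troponins did not move alike. Tnnt3, fast troponin T, had an intensity of 15239 at d0, 14662 at d1, 14682 at d3 and 15131 at d5, then 14884, 15380 and 15314 at d7, d10 and d14. Its log2 ratio to d0 lay between -0.06 and 0.01, less than the scale of 0.0896 on every day. Tnni2, fast troponin I, the subunit that blocks actin at rest, went from 12270 at d0 through 11315 at d1 to 10568 at d3, and then read 11360, 11604, 11582 and 11851 at d5, d7, d10 and d14. At d3 it stood at 86.1% of d0 (log2 ratio -0.22), and at d14 at 96.6%.

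Tnnc2, fast troponin C, the calcium sensor, had an intensity of 14907 at d0, 12629 at d1, 12500 at d3 and 13014 at d5, then 13119, 13116 and 13908 at d7, d10 and d14. Its ratio was -0.24 already at d1 and -0.25 at d3, and it stood at 93.3% of d0 at the end. Its d0 reading lay above all 6 others. Tpm1, the alpha-tropomyosin of fast fibres and heart, whose other splice forms are made in many cells, read 14882 at d0, 14180 at d1, 14498 at d3 and 15222 at d5, then 14477, 15158 and 14992 at d7, d10 and d14. Its ratios ran from -0.07 to 0.03, and none exceeded the scale.

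Among the thick filament genes the light chains were the members that came to lie above d0. Mylpf, the phosphorylatable fast regulatory light chain, had an intensity of 8814 at d0, 8071 at d1, 8727 at d3 and 9470 at d5, then 9409, 9071 and 8899 at d7, d10 and d14. It was lower by 0.13 at d1, higher by 0.10 at d5 and by 0.09 at d7, and at 101% of d0 by d14. Between d1 and d5 it moved by 1.17-fold, the whole of its range. Myl1, which encodes the fast essential light chains, read 15669 at d0, 14879 at d1, 15287 at d3 and 16349 at d5, then 15534, 16381 and 15592 at d7, d10 and d14. Its ratios lay between -0.07 and 0.06, with the 2 highest readings at d5 and d10 and one near d0 between them.

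Mybpc2, fast myosin-binding protein C, showed the widest excursion. Its intensity was 12050 at d0, 11089 at d1, 9587 at d3 and 10010 at d5, then 11433, 11089 and 11129 at d7, d10 and d14. At d3 it stood at 79.6% of d0 (log2 ratio -0.33), and 2.61% of all kept genes had a lower ratio that day. By d7 the ratio was -0.08, and it was -0.11 at d14.

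Both Z-disc genes were lower than at d0 on every later day. Actn3, the alpha-actinin of fast glycolytic fibres, read 15625 at d0, 14382 at d1, 12743 at d3 and 12822 at d5, then 13661, 13343 and 13929 at d7, d10 and d14. Its ratio was -0.29 at d3 and -0.29 at d5, and at -0.17 it was the farthest of the 9 from d0 at d14. Myoz1, a calcineurin-binding Z-disc protein (calsarcin-2) of fast fibres, read 14140 at d0, 11876 at d1, 11816 at d3 and 11824 at d5, then 12714, 13227 and 13376 at d7, d10 and d14. It held nearly the same low level on 3 arrays in a row, with ratios of -0.25 at d1 and -0.26 at d3 and d5, and reached 94.6% of d0 by d14.

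A bound of 0.32 on the log2 scale was used to count larger differences from d0. Only Mybpc2 at d3 lay that far below d0, and no member lay that far above it on any day. Of all kept genes, 3.07%, 2.79%, 3.35%, 2.86%, 2.39% and 1.8% were that much lower on the 6 days from d1 to d14 in turn, and 15.7%, 9.95%, 8.59%, 12.4%, 13.3% and 7.25% that much higher. A single call among 9 genes on 6 days does not set the members apart from these shares. The sign of the difference, a measure taken up after the values were seen, was less even. All 9 members lay below d0 at d1, where 25.0% of kept genes did, and all 9 at d3, where 29.0% did. The count was 6 at d5 (33.4% of kept genes), 8 at d7 (29.9%), 5 at d10 (23.8%) and 6 at d14 (22.5%). The median of the 9 ratios was -0.12, -0.22, -0.11, -0.08, -0.08 and -0.05 on the 6 days in turn, while the median kept gene lay at 0.10, 0.07, 0.05, 0.08, 0.10 and 0.08. Set relative to that shift, the median of the 9 was -0.22, -0.28, -0.16, -0.15, -0.18 and -0.13, and all 9 lay below the median gene on each day but d5 (7) and d7 (8). Mylpf stayed above it at d5 and d7, by 0.06 and 0.02, and Myl1 at d5 by 0.01.

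**Figure D2:**
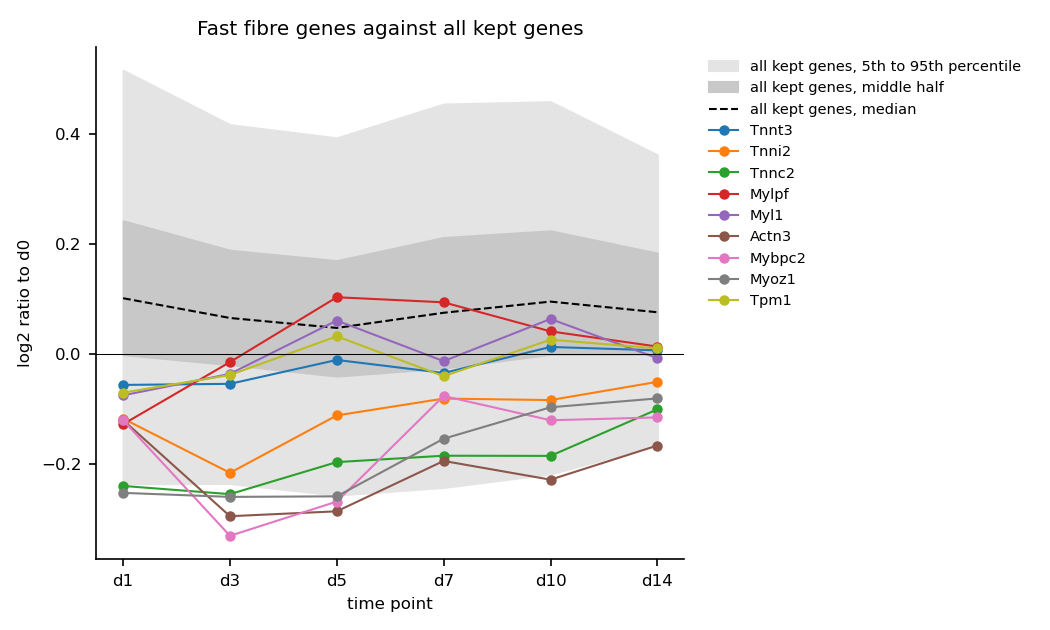
Log2 ratio to d0 (y axis) on each later time point (x axis) for the 9 genes (coloured points and lines, 1 pooled array each), over the range of all 12102 kept genes (light band, percentiles 5 to 95; dark band, the middle quartiles; dashed line, median). At d3 the members run from -0.33 (Mybpc2) to -0.01 (Mylpf), all below the dashed line at 0.07.

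Brightness moved with this sign. The 9 rows were among the brightest on the array, with at most 303 of 35556 rows above any of them. Of the 69 other kept genes with a mean level at or above that of Mylpf, the dimmest member, 66.7% lay below d0 at d1 and 66.7% at d3, and 42.0% at d5. Their median ratio was -0.06 at d1, -0.02 at d3 and 0.00 at d5, and none of them lay past the bound of 0.32 below d0 on those days. The ratios of Tnnt3, Tpm1, Myl1 and Mylpf at d3 (-0.05, -0.04, -0.04 and -0.01) were close to that median, and those of Tnni2, Tnnc2, Myoz1, Actn3 and Mybpc2 (-0.22 to -0.33) lay below it. When the arrays were quantile normalized again, Tnnt3, Tpm1 and Myl1 turned to between 0.01 and 0.06 at d1 and d3, so that 6 of 9 lay below d0 on both days, while those 5 genes stayed below d0 on all 6 days. The 69 genes hold muscle fibre genes, among them Ckm and Pygm (19664 and 15997 at d0). Brightness and expression in muscle fibres therefore cannot be told apart in this comparison. How rows this bright respond to a given difference in RNA was not tested.

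Set against d14 in place of d0, the lower readings at d3 remained in sign. All 9 members were lower at d3 than at d14, by 0.03 (Mylpf and Myl1) to 0.22 (Mybpc2) on the log2 scale, and 48.4% of kept genes were lower in that comparison. At d1, 8 of 9 were lower than at d14, the exception being Actn3 at 0.05 above it, with 40.9% of kept genes lower. From d3 to d5 all 9 read higher, by 0.00 (Myoz1) to 0.12 (Mylpf), a direction taken by 35.9% of kept genes. These steps share arrays with the comparisons against d0 and are not independent of them.

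No member passed a test for a steady rise or fall over time. A fall followed by a return, the course of the members lowest at d3, largely cancels in a slope over all time points. The fits cannot decide on such a course. In the limma fit of log2 intensity on log2(day + 1) over all 7 time points, 0 of 9 members and 0 of 12102 genes (0.0%) passed a Benjamini-Hochberg adjusted p of 0.05; at an unadjusted limma p of 0.05 the fit had 1112 genes with a rising and 176 with a falling slope, and none of the 9 was among them. Actn3 had the largest fitted change in this fit, -0.18 ± 0.090 (SE, limma adjusted p 0.517). Over the 6 reloaded time points, without d0, the same limma fit called 43 genes (0.355%) and again 0 of 9 members; with any 1 of these time points left out it called 0 to 3 genes. At an unadjusted limma p of 0.05 the fit over all 6 had 833 genes with a rising and 773 with a falling slope. Of the members, 2 were among the rising. In this fit 8 of the 9 fitted changes from d1 to d14 were positive. The largest were those of Myoz1, 0.20 ± 0.057 (SE, limma adjusted p 0.220, unadjusted 0.0115), Mylpf, 0.16 ± 0.078 (limma adjusted p 0.462), and Tnnc2, 0.13 ± 0.044 (limma adjusted p 0.293, unadjusted 0.0255). Actn3 was the exception, at -0.02 ± 0.081 (limma adjusted p 0.965). These values leaned on d1: without it Mylpf moved to 0.0070, Myl1 from 0.10 to 0.04, Actn3 to 0.19, Mybpc2 from 0.09 to 0.36, Tnni2 from 0.10 to 0.23, Tnnc2 to 0.20 and Myoz1 to 0.32. Without d14, Mylpf moved to 0.24, Myl1 to 0.15 and Tnnc2 to 0.08, and without d3 Tnni2 moved to 0.06 and Mybpc2 to 0.03.

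**Figure D3:**
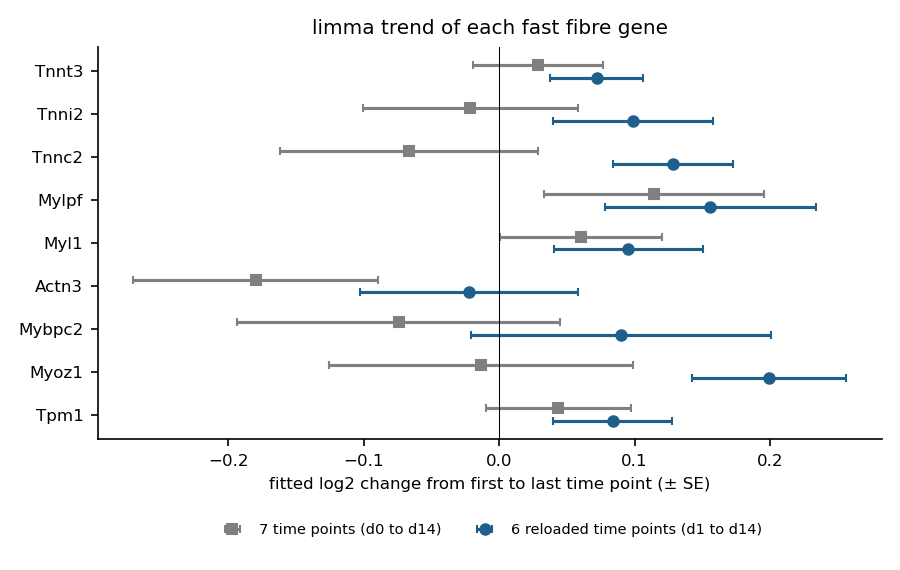
Fitted log2 change from the first to the last time point, with its standard error (x axis), for each of the 9 genes (y axis), from the limma fit over 7 time points (grey squares) and over the 6 reloaded time points (blue circles). Without d0, 8 of 9 points lie to the right of 0, and no gene passed the adjusted threshold in either fit.

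Promoters of members with their lowest value at d3 and of members with their lowest value at d1 are shown for their sequence. RefSeq windows on GRCm38.p6 were matched for 5 of the 9 genes (Tnnc2, Mylpf, Myl1, Mybpc2 and Tpm1); Tnnt3, Tnni2, Actn3 and Myoz1 were not matched. Each sequence is the 250 bases before a transcript start, 5′ to 3′ on the gene's strand, with motif matches in capitals. The motifs searched on both strands were the E-box CANNTG bound by MyoD family factors, the MCAT box CATTCC bound by TEAD factors, and the MEF2 and CArG boxes. The first 2 sequences belong to genes that were lowest at d3.
Tnnc2 (chr2:164779735-164779984, minus strand): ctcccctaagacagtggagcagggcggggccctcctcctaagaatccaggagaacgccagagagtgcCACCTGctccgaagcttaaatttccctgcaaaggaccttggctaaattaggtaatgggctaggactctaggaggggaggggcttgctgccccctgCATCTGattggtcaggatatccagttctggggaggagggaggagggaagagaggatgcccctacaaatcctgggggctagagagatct
Mybpc2 (chr7:44524670-44524919, minus strand): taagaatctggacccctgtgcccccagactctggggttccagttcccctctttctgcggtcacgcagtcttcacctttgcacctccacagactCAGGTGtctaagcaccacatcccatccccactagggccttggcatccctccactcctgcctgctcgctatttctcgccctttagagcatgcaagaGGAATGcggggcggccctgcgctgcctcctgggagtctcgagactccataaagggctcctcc
The next 2 belong to the light chains, which were lowest at d1.
Mylpf (chr7:127211358-127211607, plus strand): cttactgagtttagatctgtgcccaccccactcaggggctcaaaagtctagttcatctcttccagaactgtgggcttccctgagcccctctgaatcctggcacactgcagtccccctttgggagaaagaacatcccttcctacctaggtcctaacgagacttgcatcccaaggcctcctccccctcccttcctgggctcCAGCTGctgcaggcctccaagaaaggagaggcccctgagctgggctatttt
Myl1 (chr1:66945057-66945306, minus strand): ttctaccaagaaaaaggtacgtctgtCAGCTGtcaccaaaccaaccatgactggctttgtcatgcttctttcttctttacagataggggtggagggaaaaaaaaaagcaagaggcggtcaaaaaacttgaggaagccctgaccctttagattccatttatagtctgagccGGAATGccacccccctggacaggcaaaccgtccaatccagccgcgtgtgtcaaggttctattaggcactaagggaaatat

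Each of these windows, and that of Tpm1, held at least 1 E-box, as did 66.2% of 32851 windows of the same length. Tnnc2 had 2 E-boxes, at 183 to 178 and 88 to 83 bases before the start. An MCAT box, which reads GGAATG on the printed strand, stood at 62 to 57 bases before the start in Mybpc2, at 80 to 75 in Myl1 and at 56 to 51 in Tpm1, and 12.6% of all windows held one. No match to the MEF2 or CArG box was found in the 5 windows; 0.508% and 1.47% of all windows held one. No capital overlaps another motif, and a match is a run of letters and not a measured site.

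The counterparts of the 9 genes in slow or other fibres lay mostly above d0. Paired by protein, these were Tnnt1, Tnni1, Tnnc1, Myl2, Myl3, Actn2, Mybpc1, Myoz2 and Tpm3, of which Actn2 is made in all fibre types. The median of the 9 counterparts was 0.45, 0.95, 0.58, 0.25, 0.73 and 0.28 on the 6 days in turn. On each day from d1 to d10 the counterpart had the higher ratio in 9 of 9 pairs, and at d14 in 8 of 9. The exception at d14 was troponin I, where Tnni1 stood at -0.18 and Tnni2 at -0.05. Against d14 in place of d0, the counterpart had the higher ratio in 5 of 9 pairs at d1, 8 of 9 at d5 and 9 of 9 at d3, d7 and d10. At d1 the counterpart was the lower one for the light chains (Myl2 at -0.52 and Mylpf at -0.14, Myl3 at -0.71 and Myl1 at -0.07), for Myoz2 (-0.29, with Myoz1 at -0.17) and for Mybpc1 (-0.07, with Mybpc2 at -0.01). At d5 it was Myl3 (-0.02, with Myl1 at 0.07). The median kept gene also lay above d0, at 0.05 (d5) to 0.10 (d1). Of the 69 other genes at least as bright as the dimmest member, 66.7% lay below d0 at d1 and d3. Members read 8814 or more at d0, and the counterparts 262 (Tnnt1) to 8301 (Mybpc1). The part of brightness in the counts of pairs was not tested. No difference between a pair was tested, and 0 of 9 counterparts passed the limma trend in either fit.

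The pairs differed in shape. For troponin C at d3, Tnnc1, at 678 against 280 at d0, was higher by 1.27 while Tnnc2 was lower by 0.25; at d7 Tnnc1 was back at 280 and Tnnc2 at -0.18. The troponin I pair stood 1.46 apart at d3, with Tnni2 at -0.22. Troponin T gave 0.72 for Tnnt1 and -0.05 for Tnnt3. In these 3 pairs the slow gene was lower at d7 than at d5 or d10 and had a second high reading at d10, of 0.79 (Tnnt1), 0.73 (Tnni1) and 0.73 (Tnnc1). The fast partners stood at 0.01, -0.08 and -0.18 that day.

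The light chain pairs kept their distance longer than the troponin pairs. Myl2 stood at 1.20 at d3, 1.35 at d5 and 1.54 at d10, and at 0.94 at d14, when Mylpf was at 0.01. Myl3 was at 1.01, 0.94 and 1.30 on those first 3 days and at 0.96 at d14, against -0.01 for Myl1. Of the Z-disc pairs, Actn2 was highest at d3 (0.78, with Actn3 at -0.29) and Myoz2 at d5 (1.07, with Myoz1 at -0.26). The Z-disc pairs kept a distance too: at d14 Myoz2 and Myoz1 stood 0.92 apart and Actn2 and Actn3 0.65. The light chain pairs stood 0.93 (Myl2 and Mylpf) and 0.97 (Myl3 and Myl1) apart that day. In the remaining pairs Mybpc1 lay between 0.08 and 0.22 on all days, and Tpm3 between 0.11 (d14) and 0.47 (d3). Tpm3 had 4 rows that bore only its symbol, and these values are from the brightest alone. Intensities of different rows are not compared here as amounts of RNA.

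**Figure D4:**
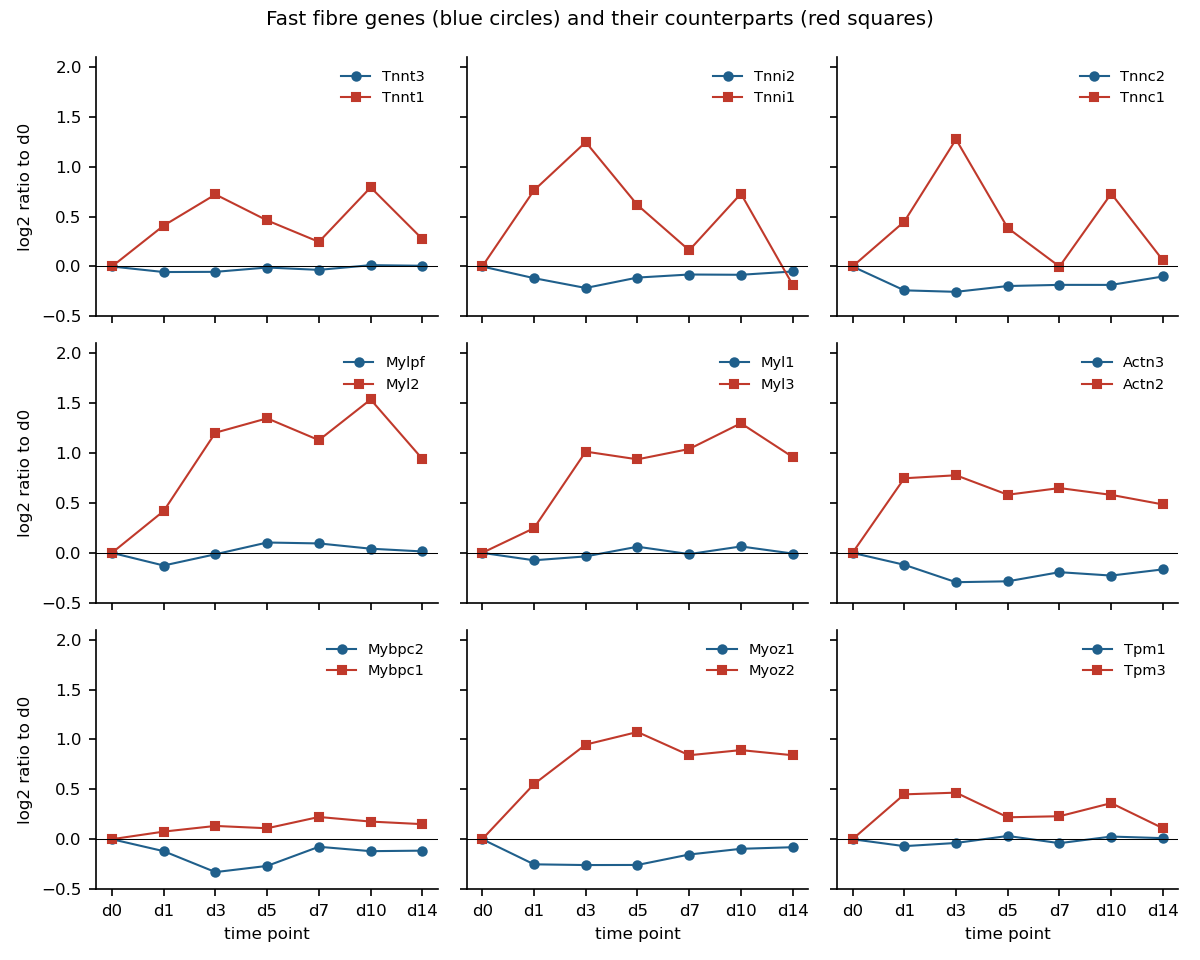
Log2 ratio to d0 (y axis, the same in all panels) at each time point (x axis) for each fast fibre gene (blue circles) and its counterpart (red squares), 1 pooled array per point. At d3 every counterpart lies above its partner, with Tnnc1 at 1.27 against Tnnc2 at -0.25 and Mybpc1 at 0.13 against Mybpc2 at -0.33.

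Other genes of fast fibres from a fixed list of 20, which holds myosins, calcium handling and glycolytic genes and skeletal actin, had a median ratio of -0.09 at d1, -0.09 at d3 and -0.11 at d5, and of -0.02 at d14, beside -0.12, -0.22, -0.11 and -0.05 for the 9 members. At d5, 4 of the 20 lay past the bound of 0.32 below d0 and 1 above it, beside 3.35% and 8.59% of all kept genes. The largest ratios that day belonged to Myh2, the IIa myosin (0.96), Mylk2, the kinase that phosphorylates the product of Mylpf (-0.57), and the calcium channel subunits Cacna1s (-0.41) and Cacng1 (-0.38). Mylk2 was at -0.64 at d3 and 0.11 at d14. None of the 20 passed the limma trend over 6 time points.

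Of the sarcomere scaffold genes 31 were kept, with medians of 0.12 at d1 and 0.01 at d3, and 15 of them lay below d0 at d3 (29.0% of all kept genes did). The lowest that day, chosen after their values were seen, were the titin cap Tcap (-0.28) and the M-band proteins Myom2 (-0.26) and Myom1 (-0.20). The list was led at d1 by Klhl40 (1.71) and Lmod2 (0.69), which help keep thin filaments stable, by Mybph (0.57) and by Klhl41 (0.48). Chaperones of sarcomere assembly had a median of 0.62 at d1 and 0.33 at d3 over 10 kept genes. All 10 were higher than d0 on each day, while 22.5% (d14) to 33.4% (d5) of all kept genes lay below d0. At d1 Hsp90aa1 stood at 1.55, Hspb7 at 1.35, Hspb1 at 1.33 and Hspb8 at 0.89. Over the 6 reloaded time points Hspb1 (limma adjusted p 0.00870) and Hsp90aa1 (limma adjusted p 0.0469) fell, to 0.41 and 0.05 at d14, the 2 calls among these 10. Regulators of fibre type, 29 kept, had a median of -0.08 at d5, their farthest from 0, with the calcineurin regulator Rcan1 at 0.75 and the transcription factors Nfic at -0.47, Myod1 at -0.44 and Maf at -0.42. No scaffold gene and no regulator passed the limma trend over 6 time points, and over 7 time points no gene of any list did.

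Markers of other cells moved over the same days. Summed over 13 macrophage genes, of which 10 were kept (not Cd14, Cd163 or Aif1), intensity was 4625 at d0, 6952 at d1 and 6656 at d3, and lowest at d14 (4130), with Cd68 at 2.04 at d1 (medians 0.48 at d1 and 0.37 at d3). The sum over 13 neutrophil genes, 12 of them kept, was 1857 at d0, 4618 at d3 and 10021 at d10, with Ngp at 3.46 that day (median 2.26). The 11 fibroblast genes summed to 17308 (d1) to 20547 (d10), with Postn at 2.06 at d5 (median 0.66). At d5, 3 of the 11 lay below d0, Dcn (-0.23), Pdgfra (-0.14) and Pi16 (-0.02), beside 33.4% of all kept genes. The 8 tendon genes ran from 7519 (d0) to 10154 (d10), with Ptx4 at 1.17 that day (median 0.62), and one of them, Tnmd, passed the limma trend over 6 time points (adjusted p 0.0469). Endothelial genes had medians of 0.07 (d5) to 0.25 (d10), led by Kdr (0.63 at d10). Smooth muscle genes, relevant because such cells also make Tpm1, had medians of 0.01 (d5) to 0.14 (d1), led by Cnn1 (0.46 at d1). Schwann cell genes, 4 of 6 on the array kept, had medians of -0.07 (d10) to 0.23 (d14), with S100b at 0.38. None of these markers was at 0, since the lowest value in the table was 5.2. At d0 Ptx4 (90.3), Cnn1 (97.4) and S100b (110.7) read below the lowest array median of 128.1, so their ratios rest on dim rows. The part of these cells in the ratios of the 9 genes was not tested.

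The genes whose course was most like the median course of the 9 were sought among 8522 kept genes with at least its range of 0.22, leaving out predicted genes, clones, small RNAs and olfactory, vomeronasal and trace amine receptors. All symbols that start with Rn, Igk, Igh, Trb, Trav, Traj or Trad were left out too, whatever the gene. By Pearson's r over the 7 arrays the 5 nearest were Cst3, a secreted protease inhibitor (0.97), Tpd52l1 (0.95), Syngr1, a vesicle protein (0.95), Agt, angiotensinogen (0.95), and Apeh, a peptidase (0.95). At d3 they stood at -0.22, -0.36, -0.32, -0.44 and -0.22. The most opposite were Tmem116 (r -0.98), Nav2 (-0.97), Rfc5, a clamp loader subunit of DNA replication (-0.96), Csrp2, a LIM protein (-0.96), and Pigu (-0.96), at 0.65, 0.23, 0.25, 0.44 and 0.32 at d3. With 7 arrays and so many genes, values of r this high are a description and carry no test. Among the members themselves the r with that median course was 1.00 for Tnni2, which is itself the median member at d3, d5, d10 and d14, 0.89 for Mybpc2, 0.88 for Tnnc2, 0.85 for Myoz1, 0.75 for Actn3 and 0.70 for Tnnt3, but 0.38 for Tpm1, 0.27 for Myl1 and 0.19 for Mylpf.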

How the data were processed

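Values were linear array intensities, 1 per transcript cluster and array, deposited by the authors after normalization between arrays. The submitters' processing notes name Partek and give no step for it; which background correction, normalization and genome build the authors used is not given in the sources used here. Of the kept genes, 55.5% had the same value on at least 2 arrays (to 0.1), as had 1 member (Mybpc2, d1 and d10).

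The deposited intensities were turned into log2 values, pseudocount 0. Among 35556 rows, 21789 had 1 gene symbol in the platform annotation; the row of highest mean log2 intensity stood for a gene. Each later day was set against d0 without a test, with a bound of 0.32 (log2). Trends used limma 3.58.1 in R 4.3.3 (lmFit, eBayes with an intensity trend, two-sided, Benjamini-Hochberg over 12102 genes) and were tested on simulated data. The error of a trend is the scatter of different pools about the line. Pooled arrays carry no animal-to-animal spread. Other steps used pandas 2.3.3 with numpy 2.4.6 under Python 3.11.15, and figures matplotlib 3.10.9.

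The members, lists and bound were chosen with earlier results of these data known. Named besides the members were their counterparts, up to 4 genes of each list with the largest ratios on the day when that list's median was most distant from 0 (for cell markers, the first of these), and the 5 genes most and least like the members' median course. Alternatives covered normalization, filter, reference array, fold, time scale, a gene's rows and each time point left out; centring on all kept genes and counts below d0 were added after the data were seen. The result for 1 other motif is not reported here.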

Additional observations from a re-analysis of the deposited data

How the results depend on the processing

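The members' median ratio stayed below 0 on every day under quantile normalization, medians set equal, averaged rows per gene, the mean of the members, and 1 member left out, and from d1 to d10 with d14 as the reference. Against the mean of the 6 other arrays it was -0.10 at d3 and -0.020 at d5, and above 0 at d10 (0.031) and d14 (0.031), and centred on all kept genes -0.22 at d1 and -0.18 at d10.

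The 1 member past the bound of 0.32 below d0 at d3 became 0 when d14 or an average of the other arrays was the reference, or at 1.5-fold. At 1.1-fold, 2, 5, 4, 3, 2 and 1 members were lower on the 6 days, and after centring 2 at d1, 3 at d3, 1 at d5 and 1 at d10. The shares of all kept genes at 1.1-fold and after centring are not given here, so these counts do not set the members apart. No member lay past the bound of 0.32 above d0 under any alternative at it.

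Of 8 members below d0 at d7, 5 remained in number under quantile normalization and 5 against the mean of the other arrays. That reference gave 2 at d10 and 2 at d14, and centring gave 9 at d10.

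In no trend fit was a member called, whichever alternative was used. Over 7 time points the fitted change turned positive on a linear scale of days for Tnni2 (0.031), Tnnc2 (0.0092), Mybpc2 (0.0083) and Myoz1 (0.074), and on ranks for Tnni2 (0.011) and Myoz1 (0.038). With each time point left out, these 4 ran from -0.067 to 0.13, -0.15 to 0.17, -0.13 to 0.12 and -0.086 to 0.27, the highest of each without d0. Over 6 time points Actn3 turned positive on days (0.022) and ranks (0.0085) and ran from -0.092 to 0.19, the highest without d1. Over all genes the 6-point fit called 19 up and 24 down, against 75 and 66 after quantile normalization, 93 and 69 with a filter at percentile 75, 0 and 4 without an intensity trend, 0 and 3 without a filter, 0 and 1 on ranks and none on days. The causes were not tested.

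No array has a replicate, so differences below about 0.1 between 2 time points are no larger than the scatter between the most similar arrays. Between d0 and the later arrays that scatter was 0.126 to 0.179. No paired analysis was possible because each time point is 1 pooled array.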
